A study of Mus musculus with 8 samples.

Results

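Killer lymphocytes store toxic proteins in granules and release them onto a target cell. Of the genes that build these granules, 6 were followed here by name in T cells of lupus mice: the granzymes Gzma, Gzmb and Gzmk, the perforin gene Prf1, the granule membrane protein gene Nkg7 and the granule proteoglycan gene Srgn. They are 6 of the 13341 genes in the deposited table, and all 6 passed the filter on low levels, as did 10845 genes in all.

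The cells came from 14-week-old MRL/lpr mice, and MRL/lpr is the genotype of every group. The lpr allele disrupts Fas, the death receptor, and the MRL background with lpr develops a lupus-like disease with inflamed kidneys. T cells with high CD44, a surface protein of cells that have met antigen, were sorted as CD4+ or CD8+ from kidney and from spleen. This gave 4 groups of 2 libraries each, called kidney CD4+, kidney CD8+, spleen CD4+ and spleen CD8+ here, made from low-input RNA with a full-length amplification kit that does not keep the strand. The design compares T cells of the diseased organ with those of a lymphoid organ, within each cell type. The groups hold no mice without lpr and no healthy strain, and the labels name no sort marker beyond CD44, CD4 and CD8. They do not say whether the 2 libraries of a group came from separate mice, so p-values measure the spread between these libraries, which may be technical.

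In a cytotoxic granule, perforin is the protein that opens pores in the target cell membrane, and granzymes are the serine proteases that pass through and cut proteins inside. Granzyme B cuts after aspartate and starts apoptosis through caspases, while granzymes A and K cut after lysine or arginine. Serglycin, the product of Srgn, is the proteoglycan core that holds granzymes and perforin packed in the granule. Nkg7 is needed for granules to be released efficiently. CD8+ effector cells are the classical users of this pathway among T cells, and some CD4+ effector cells use it too.

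Depth was 7477544 to 11169003 reads per library, and the 6 genes together took 1.15% to 3.07% of the reads. A level below is the deposited normalised signal, in which 1 read was worth 0.554 to 1.04 depending on the library. Ratios are of group means, and a log2 difference is between means of log2(level + 1), followed by its SE where ± is given. Cd4 and Cd8a, the genes of the sort markers, followed the labels: Cd8a was at 12159 to 18556 in the CD8+ libraries and at 1.11 to 103 in the CD4+ libraries. The 2 kidney CD4+ libraries were the least alike pair: their log2 levels correlated at 0.827 over genes, against 0.902 to 0.961 for the other groups. Replicates of kidney CD4+ differed with an SD of 1.56 on the log2 scale over 4691 genes, against 0.650 for kidney CD8+, 0.452 for spleen CD4+ and 0.435 for spleen CD8+. Every test below shares 1 estimate of spread over the 4 groups, and that pair is part of it. For the 6 genes and for Gzmm, a further granzyme, results are also given without it where that changes a call. For most other genes named below only the fit with that pair is given, and some may pass without it.

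Gzma (ENSMUSG00000023132.6) lies on mouse chromosome 13 at chr13:113884033-113891187 of the mm9 build, on the minus strand, with 5 exons. Gzmk (ENSMUSG00000042385.8) lies on the same strand at chr13:113961816-114016116, 70628 nt away. Its annotated span overlaps Esm1, a coding gene on the opposite strand. In coding transcripts, 0 of 1388 stretches of 50 nt of Gzmk were shared with another gene on either strand. Shorter overlaps and reads outside coding transcripts were not checked, and without strand such reads could not be told apart. Gzmb (ENSMUSG00000015437.4) lies at chr14:56877693-56881097 in another granzyme cluster, next to Gzmc at a distance of 24200 nt. Prf1 (ENSMUSG00000037202.5) is at chr10:60760584-60767011, Srgn (ENSMUSG00000020077.8) at chr10:61956581-61990199 and Nkg7 (ENSMUSG00000004612.7) at chr7:50692443-50693616. No stretch of 50 nt in any coding transcript of these 6 genes was shared with a coding transcript of another gene (0 of 888 stretches for Gzma and 0 of 1369 for Gzmb, for example).

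The promoters of the 3 granzymes and of Prf1 are printed because the results turn on how these 4 genes, which act together in the granule, differ in their order over the groups. Each is 300 bases in RefSeq's GRCm38.p6 coordinates, from 250 bases before the start to 50 after it, written 5′ to 3′ along the gene. Capitals mark matches on either strand to TGTGGT, the core letters bound by Runx factors, to AGGTGT, those bound by T-box factors such as T-bet and Eomes, or to TGACTCA, the AP-1 site. The places are chr13:113100932-113101231 (minus strand) for Gzma, chr14:56262285-56262584 (minus) for Gzmb, chr13:113180916-113181215 (minus) for Gzmk and chr10:61297586-61297885 (plus) for Prf1.
Gzma: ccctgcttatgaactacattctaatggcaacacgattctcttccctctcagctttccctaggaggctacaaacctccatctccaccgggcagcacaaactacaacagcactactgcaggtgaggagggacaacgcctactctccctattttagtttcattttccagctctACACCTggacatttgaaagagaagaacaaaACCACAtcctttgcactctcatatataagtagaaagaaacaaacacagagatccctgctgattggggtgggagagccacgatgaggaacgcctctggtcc
Gzmb: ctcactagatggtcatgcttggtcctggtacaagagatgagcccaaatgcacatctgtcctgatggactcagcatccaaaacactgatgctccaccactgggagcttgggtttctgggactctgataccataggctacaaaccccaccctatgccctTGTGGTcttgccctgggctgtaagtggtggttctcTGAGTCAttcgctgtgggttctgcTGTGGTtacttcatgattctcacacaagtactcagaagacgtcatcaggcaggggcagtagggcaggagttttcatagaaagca
Gzmk: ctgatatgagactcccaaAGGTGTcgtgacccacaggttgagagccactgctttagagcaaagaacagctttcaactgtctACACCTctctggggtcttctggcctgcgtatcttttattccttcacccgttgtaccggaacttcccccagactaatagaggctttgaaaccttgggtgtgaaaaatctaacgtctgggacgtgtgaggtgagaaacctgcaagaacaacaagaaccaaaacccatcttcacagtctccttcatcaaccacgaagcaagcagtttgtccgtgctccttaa
Prf1: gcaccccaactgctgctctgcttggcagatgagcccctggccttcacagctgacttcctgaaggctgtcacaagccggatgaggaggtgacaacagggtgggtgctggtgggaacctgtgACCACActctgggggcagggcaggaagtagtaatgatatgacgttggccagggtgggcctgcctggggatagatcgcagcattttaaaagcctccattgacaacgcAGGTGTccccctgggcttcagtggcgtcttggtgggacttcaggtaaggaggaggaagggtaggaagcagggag
The Gzma promoter held a T-box match beginning 80 bases before the start and a Runx match beginning 50 before it. The Gzmb promoter held Runx matches at 93 and 34 bases before the start and an AP-1 match at 58, with no T-box match. The Gzmk promoter held T-box matches at 232 and 169 bases before the start and neither of the other motifs. The Prf1 promoter held a Runx match at 130 and a T-box match at 24 bases before the start. No match overlapped another. Among 32851 promoters of the same width, 16.8% held the Runx letters, 13.7% the T-box letters and 5.2% the AP-1 letters. These shares count a promoter with any number of matches, and a match describes the letters alone.

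Granzyme A was far higher in CD8+ than in CD4+ cells of both organs. Gzma was at 169 and 458 in the kidney CD4+ libraries, 222 and 326 in spleen CD4+, 7534 and 7103 in kidney CD8+ and 7914 and 7445 in spleen CD8+. All 4 CD8+ libraries lay far above all 4 CD4+ libraries, while within a cell type the 2 organs overlapped. The mean was 7318 ± 305 (SD, n = 2) in kidney CD8+ against 314 ± 204 in kidney CD4+, a ratio of 23.3 (log2 4.71 ± 0.48 SE, limma adjusted p = 0.0101). In spleen it was 7680 ± 331 against 274 ± 73.4, a ratio of 28.0 (log2 4.83 ± 0.48, adjusted p = 0.00645). Between organs Gzma did not pass the test: in CD8+ cells the log2 difference, kidney minus spleen, was −0.07 with a 95% interval of −1.17 to 1.03 (adjusted p = 0.978). In CD4+ cells it was 0.05 with an interval of −1.05 to 1.15 (adjusted p = 0.991). Without kidney CD4+ replicate 1 it was 0.76 and without replicate 2 it was −0.67, each with 1 library left in that group.

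The direction of the Gzma difference between cell types was the same in every alternative run, with log2 values of 3.99 to 5.43 in kidney and 4.55 to 5.10 in spleen, but its call rested on few libraries. In kidney 15 of 20 alternatives kept it, with adjusted p from 5.98e-12 to 0.251. It was lost in the kidney libraries alone (0.163), without kidney CD8+ replicate 1 (0.251) or 2 (0.0596), without spleen CD4+ replicate 2 (0.056) and without spleen CD8+ replicate 1 (0.0542). In spleen 17 of 21 kept it, with adjusted p from 3.10e-14 to 0.206, and it was lost without spleen CD4+ replicate 1 (0.206) or 2 (0.11) and without spleen CD8+ replicate 1 (0.13) or 2 (0.131).

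Granzyme B had the highest levels in kidney CD8+ cells. Gzmb was at 17598 and 16917 in kidney CD8+, 7274 and 7190 in spleen CD8+, 2356 and 3248 in spleen CD4+ and 1705 and 1940 in kidney CD4+. The libraries of the 4 groups did not overlap in this order. The mean in kidney CD8+ was 17258 ± 482 against 1822 ± 166 in kidney CD4+, a ratio of 9.47 (log2 3.25 ± 0.34, limma adjusted p = 0.0107). The call was kept in 13 of 20 alternatives, with log2 values of 3.15 to 3.34 and adjusted p from 2.44e-14 to 0.362. It was lost in the kidney libraries alone (0.362), and without kidney CD8+ replicate 1 (0.265) or 2 (0.0624), spleen CD4+ replicate 1 (0.0635) or 2 (0.0589), or spleen CD8+ replicate 1 (0.0659) or 2 (0.0641).

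Between organs, Gzmb was 2.39 times as high in kidney CD8+ as in spleen CD8+ (17258 ± 482 against 7232 ± 58.9, SD, n = 2). The log2 difference was 1.25 ± 0.34 with a 95% interval of 0.47 to 2.04. Its limma p was 0.00593 before adjustment and 0.162 after it, so it missed the threshold over all genes. It passed in 6 of 21 alternatives, whose adjusted p ran from 0.00289 to 0.861. They were the CD8+ libraries alone (0.00289), library weights (0.0107), DESeq2 (0.028), and the fits without kidney CD4+ replicate 1 (0.00332), replicate 2 (0.00403) or both (0.00351). The SE was 0.34 with the kidney CD4+ pair, 0.17 without it and 0.13 with the CD8+ libraries alone. For the cell type difference in kidney the SE rose with the kidney libraries alone. It was then 0.58 for Gzmb and 0.65 for Gzma, against 0.34 and 0.48 in the fit of all 8 libraries. In spleen the CD8+ level was 2.58 times the CD4+ level (7232 ± 58.9 against 2802 ± 631; log2 1.39 ± 0.34, adjusted p = 0.225). That difference also passed in 6 of 21 alternatives, among them the spleen libraries alone (0.000302) and the fits without kidney CD4+ replicate 1 (0.00302), replicate 2 (0.00374) or both (0.00329); adjusted p ran from 0.000302 to 1.

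In CD4+ cells the order of the organs was turned. Both kidney CD4+ libraries lay below both spleen CD4+ libraries in Gzmb, with means of 1822 ± 166 and 2802 ± 631 and a log2 difference, kidney minus spleen, of −0.60 (95% interval −1.39 to 0.18, limma adjusted p = 0.692). The organ difference in CD8+ cells minus that in CD4+ cells was 1.86 ± 0.49 on the log2 scale (95% interval 0.75 to 2.97). Its p was 0.00457 before adjustment and 0.999 after adjustment over all genes, so the test of this difference did not pass. Without kidney CD4+ replicate 1 it was 1.77 and without replicate 2 it was 1.95, each with 1 library left in that group.

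Granzyme K had its highest levels in kidney CD8+ cells, and the other 3 groups overlapped. Gzmk was at 6039 and 5481 in kidney CD8+, 2460 and 2728 in spleen CD8+, 1973 and 2711 in spleen CD4+ and 1477 and 2311 in kidney CD4+. Spleen CD8+ overlapped spleen CD4+, which overlapped kidney CD4+, and both kidney CD8+ libraries were above all 6 of them. The level in kidney CD8+ was 2.22 times that in spleen CD8+ (5760 ± 395 against 2594 ± 190; log2 1.15 ± 0.37, 95% interval 0.31 to 1.99, limma adjusted p = 0.25). It was 3.04 times that in kidney CD4+ (1894 ± 590; log2 1.64 ± 0.37, adjusted p = 0.18).

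Neither difference of Gzmk passed over all genes in the fit of all 8 libraries. The organ difference passed in 5 of 21 alternatives, with adjusted p from 0.00621 to 0.965. It passed in the CD8+ libraries alone (0.00621), with library weights (0.0208) and without kidney CD4+ replicate 1 (0.00639), replicate 2 (0.0078) or both (0.00646). The cell type difference in kidney passed with DESeq2 (0.0278). It was 1.32 without kidney CD4+ replicate 1 and 1.96 without replicate 2, each with 1 library left in that group. In spleen, CD8+ and CD4+ cells differed in Gzmk by a log2 value of 0.16 with an interval of −0.67 to 1.0 (adjusted p = 1). For the organ difference in CD8+ minus CD4+ cells the value was 1.47 ± 0.52, and its limma p was 0.0205 before and 0.999 after adjustment. Without kidney CD4+ replicate 1, with 1 library left in that group, it was 1.15.

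**Figure D1:**
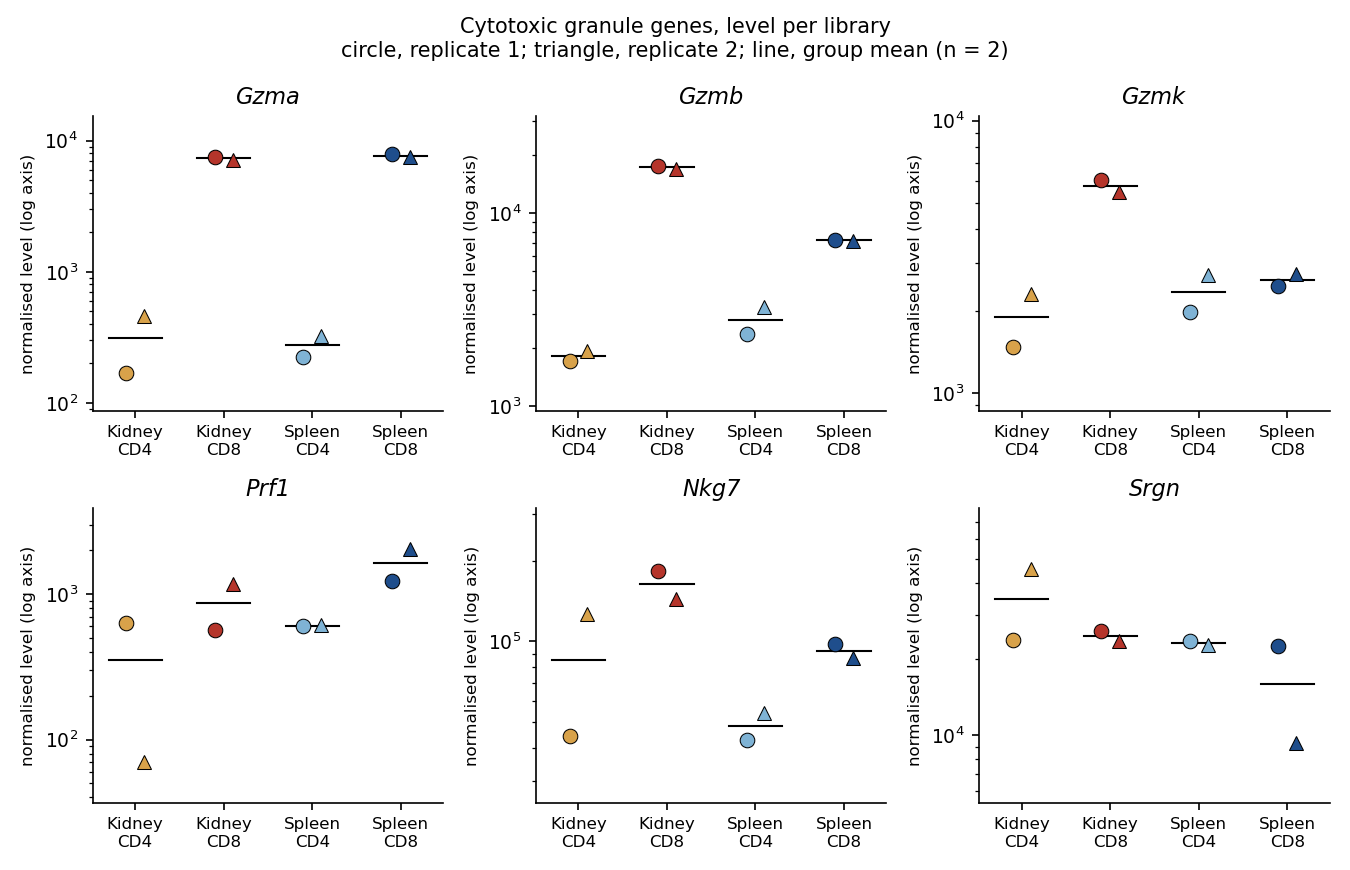
Level (deposited normalised signal, log axis, a separate scale for each gene) of the 6 granule genes in each library, with circles for replicate 1, triangles for replicate 2 and a line at the mean of the 2 libraries. Gzma separates CD8+ from CD4+ cells in both organs, Gzmb and Gzmk are highest in kidney CD8+ cells, and the replicates of kidney CD4+ cells lie far apart for Prf1 (9.11-fold), Nkg7 (2.87-fold), Gzma (2.71-fold) and Srgn (1.92-fold).

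Ratios of granzymes within a library do not depend on how the library was scaled. Gzmb over Gzma was 2.34 and 2.38 in the kidney CD8+ libraries and 0.919 and 0.966 in the spleen CD8+ libraries. So in these libraries the 2 organs' CD8+ cells did not overlap in this ratio, and the spread within an organ was small beside the gap. In CD4+ cells it was 10.6 and 9.96 in spleen and 10.1 and 4.24 in kidney, where the libraries of the 2 organs overlapped. Gzmb over Gzmk was 2.91 and 3.09 in kidney CD8+ and 2.96 and 2.64 in spleen CD8+, against 1.19 and 1.20 in spleen CD4+ and 1.15 and 0.839 in kidney CD4+. That ratio overlapped between the organs in CD8+ cells and did not overlap between the cell types. No test was run on these ratios.

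Per length of transcript, the make-up of the granzyme pool was a Gzmb and Gzmk pair in CD4+ cells and a Gzma and Gzmb pair in CD8+ cells. As shares of the levels per kilobase of Gzma, Gzmb, Gzmk and Gzmm, Gzma made up 32.6% and 32.9% in kidney CD8+, 46.4% in each spleen CD8+ library and 7.33% to 14.1% in the CD4+ libraries. Gzmb made up 47.6% and 48.0% in kidney CD8+ and 26.4% and 27.8% in spleen CD8+. Gzmk made up 43.6% to 47.9% in the CD4+ libraries and 9.71% to 17.8% in the CD8+ libraries. Gzmm, a granzyme that cuts after methionine or leucine, made up 14.3% and 17.5% in spleen CD8+ and 1.75% and 2.47% in kidney CD8+.

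**Figure D2:**
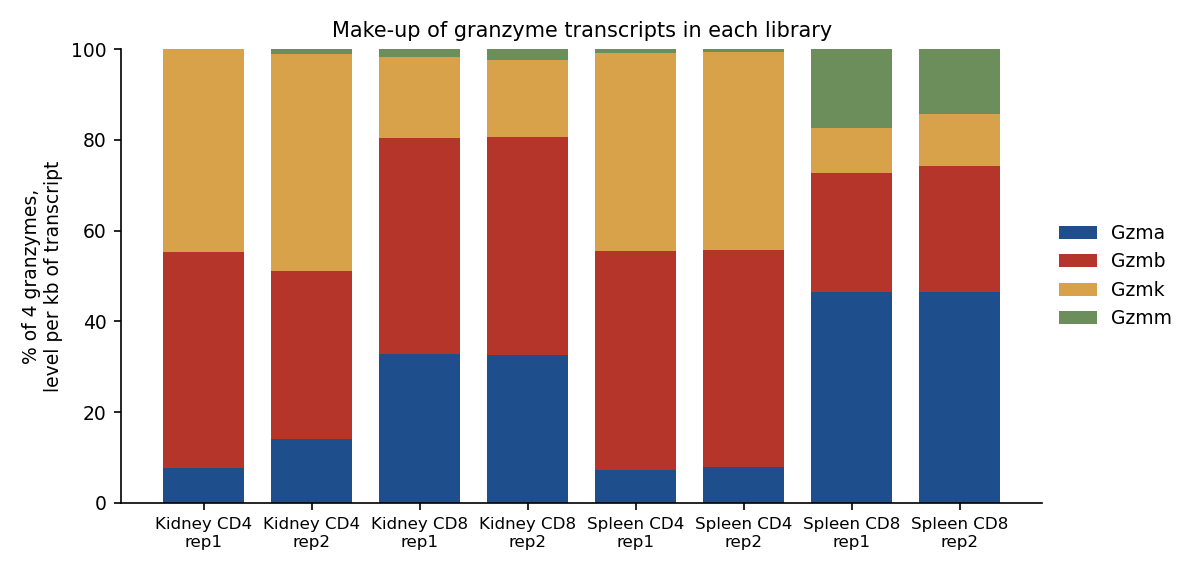
Share (%) of each of 4 granzymes in their summed level per kilobase of longest transcript, 1 bar per library. The bars of the 2 kidney CD8+ libraries and those of the 2 spleen CD8+ libraries look alike within an organ, with Gzmb at 47.6% and 48.0% in kidney and Gzmm at 14.3% and 17.5% in spleen.

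Perforin, the pore-forming partner of the granzymes, was highest in spleen CD8+ cells. Prf1 was at 1238 and 2048 in spleen CD8+, 566 and 1176 in kidney CD8+, 602 and 610 in spleen CD4+ and 635 and 69.7 in kidney CD4+. The 2 spleen CD8+ libraries lay above the other 6, and the kidney CD8+ libraries overlapped both CD4+ groups. Mean levels of CD8+ cells were 1643 ± 573 in spleen and 871 ± 431 in kidney, and those of CD4+ cells 606 ± 5.68 and 352 ± 400. In CD8+ cells the log2 difference, kidney minus spleen, was −0.96 with a 95% interval of −2.99 to 1.06 (limma adjusted p = 0.784), the opposite sign to that of Gzmb and Gzmk. The excess of CD8+ over CD4+ cells in spleen, 2.71 times, did not pass (log2 1.39 ± 0.89, adjusted p = 1), but did in the spleen libraries alone (0.00162) and with library weights (0.0412), within a range of 0.00162 to 1.

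The kidney CD4+ values of Prf1 depended on which library was taken. The 2 libraries had 901 and 67 reads of Prf1, a 9.11-fold difference in level. With both, the log2 difference of kidney minus spleen CD4+ cells was −1.52 (adjusted p = 0.7). It was −3.10 without replicate 1 (0.00113), a fit that called 22.2% of all genes in this comparison, and 0.07 without replicate 2 (0.951). The difference of kidney CD8+ minus kidney CD4+ cells was 1.95 (0.61) with both, 3.53 (0.000841) without replicate 1 and 0.36 (0.598) without replicate 2. No direction can be read for Prf1 in kidney CD4+ cells from this pair.

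Over all genes, that pair differed by transcript length, and 5 of the 6 granule genes had the sign of the median of their length, while Srgn had the opposite sign. Replicate 2 was above replicate 1 by 2.71 times for Gzma and 2.87 times for Nkg7, whose longest transcripts have 878 nt each. It was above by 1.57 times for Gzmk (1304 nt), 1.14 times for Gzmb (1418 nt) and 1.92 times for Srgn (1727 nt), and Prf1 (2054 nt) was at 0.11 of replicate 1. The median log2 difference of genes of like length was 1.20 at 878 nt, 0.27 at 1304 nt, 0.05 at 1418 nt, −0.95 at 1727 nt and −1.39 at 2054 nt. Prf1 lay below and Srgn above the median of its length, and both were between the 10th and the 90th percentile. The part of transcript length in the differences between groups was not tested.

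**Figure D3:**
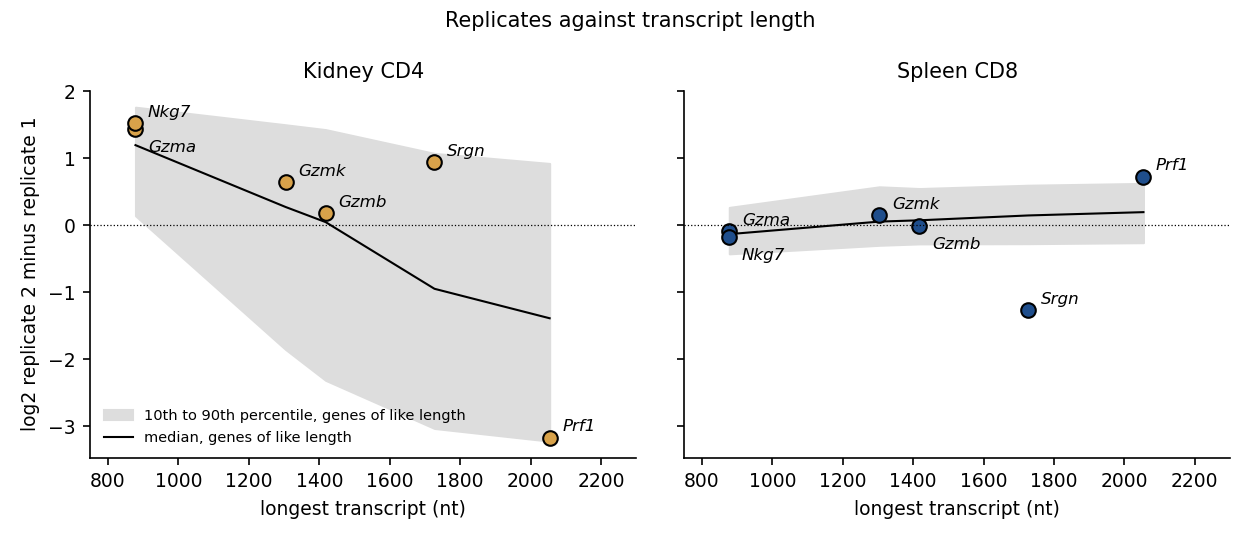
Log2 difference between replicate 2 and replicate 1 against the length (nt) of the longest annotated transcript, for kidney CD4+ cells (left) and spleen CD8+ cells (right); the line is the median and the band the 10th to 90th percentile of genes of like length. In kidney CD4+ cells the line falls from 1.20 at 878 nt to −1.39 at 2054 nt, and in spleen CD8+ cells it stays between −0.13 and 0.20, with Srgn at −1.27.

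Nkg7 was among the most abundant transcripts of every library: by level per kilobase it ranked 2 to 10 among 11966 genes. It was at 182899 and 144741 in kidney CD8+, 98007 and 86598 in spleen CD8+, 44115 and 126627 in kidney CD4+ and 42823 and 53810 in spleen CD4+. The kidney CD8+ libraries were above the other 6, and the spleen CD8+ libraries were above the spleen CD4+ ones. Kidney CD8+ cells had 1.77 times the level of spleen CD8+ cells (163820 ± 26982 against 92303 ± 8068; log2 0.82 ± 0.63, 95% interval −0.62 to 2.26, limma adjusted p = 0.734). Spleen CD8+ cells had 1.91 times that of spleen CD4+ cells (48317 ± 7769; log2 0.94 ± 0.63, adjusted p = 1).

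Both differences of Nkg7 missed the threshold in the fit of all libraries and passed in 4 of 21 alternatives. For the organ difference in CD8+ cells these were the CD8+ libraries alone (0.0386) and the fits without kidney CD4+ replicate 1 (0.0374), replicate 2 (0.0378) or both (0.0451), within a range of 0.0374 to 1. For spleen they were the spleen libraries alone (0.00961) and the fits without kidney CD4+ replicate 1 (0.0351), replicate 2 (0.0363) or both (0.0444), within a range of 0.00961 to 1. In kidney the excess of CD8+ over CD4+ cells, 1.92 times, had a log2 value of 1.12 (adjusted p = 0.702). It was 0.36 without kidney CD4+ replicate 1 and 1.88 without replicate 2. In CD4+ cells the organ difference was 0.64 (0.835), and it was 1.40 without replicate 1 and −0.12 without replicate 2. Those fits left 1 library in kidney CD4+.

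Serglycin, the packing core, had yet another order of groups, with its highest mean in kidney CD4+ and its lowest in spleen CD8+ cells. Srgn was at 23793 and 45616 in kidney CD4+, 25824 and 23660 in kidney CD8+, 23672 and 22763 in spleen CD4+ and 22540 and 9336 in spleen CD8+. Apart from a high kidney CD4+ library and a low spleen CD8+ library, the other 6 lay between 22540 and 25824. No comparison of Srgn passed: log2 differences were 0.51 (95% interval −0.75 to 1.76) between organs in CD4+ cells, 0.77 (−0.49 to 2.02) in CD8+ cells, −0.41 (−1.67 to 0.84) for CD8+ minus CD4+ cells in kidney and −0.68 (−1.93 to 0.58) in spleen. The low library, spleen CD8+ replicate 2, was at 0.414 of replicate 1, a log2 difference of −1.27, where genes of like length had a median of 0.15 and a 10th percentile of −0.27. By level per kilobase Srgn ranked 44 to 165 among 11966 genes, against 81 to 527 for Gzmb, 217 to 522 for Gzmk, 100 to 1903 for Gzma and 614 to 3719 for Prf1.

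Read over the 6 genes, cell type in kidney gave 2 calls, Gzma and Gzmb, both higher in CD8+ cells, where 0.203% of all genes tested were called and 0.12% were called higher. In spleen it gave 1 call, Gzma, where 0.36% of all genes were called and 0.129% higher. At an unadjusted p below 0.05 there were 3 of 6 in kidney and 2 of 6 in spleen, against 8.51% and 6.43% of all genes. Libraries of the 2 cell types did not overlap for 4 of 6 genes in kidney, all 4 higher in CD8+ cells, against 27.9% of all genes tested in either direction and 13.8% higher. In spleen they did not overlap for 5 of 6, 4 higher in CD8+ cells and Srgn lower, against 45.7% in either direction, 19.8% higher and 26% lower. The nearest Srgn libraries there were at 22540 in CD8+ and 22763 in CD4+ cells.

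Between organs none of the 6 was called by limma, in CD4+ cells, where 0.959% of all genes were, or in CD8+ cells, where 1.55% were. At an unadjusted p below 0.05 there were 0 of 6 in CD4+ cells and 2 of 6 in CD8+ cells (Gzmb and Gzmk), against 9.11% and 10.6% of all genes. The kidney and spleen libraries of CD8+ cells did not overlap for 5 of 6 genes, 4 higher in kidney and Prf1 lower, and 51.1% of all genes tested did not overlap in this comparison, 26.7% higher and 24.4% lower. Those of CD4+ cells did not overlap for 2 of 6, Srgn higher and Gzmb lower in kidney, against 31.9% of all genes, 16.3% higher and 15.6% lower. The nearest Srgn libraries of kidney and spleen were at 23793 and 23672 in CD4+ cells and at 23660 and 22540 in CD8+ cells. The median log2 difference over the 6 genes was 0.79 between organs in CD8+ cells and −0.14 in CD4+ cells, beside medians over all genes of 0.00 and −0.08. Between cell types it was 1.79 in kidney and 1.16 in spleen, beside 0.03 and −0.05.

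Other fits called between 0 and 4 of the granule genes, and their share of all genes moved too. For the 2 cell types edgeR called 2 of 6 in kidney and 1 in spleen, and it called 0 of 6 between organs, against 0.221% and 0.415% of all genes for the cell types in kidney and spleen and 0.609% and 0.913% for the organs in CD4+ and CD8+ cells. DESeq2 called 3, 2, 0 and 1 of 6 in the same order, against 1.99%, 2.16%, 3.25% and 4.54%. The CD8+ libraries alone gave 3 of 6 between organs, where 5.34% of genes were called, and library weights 2 of 6, where 5.32% were. Between organs in CD8+ cells 3 of 6 were also called without kidney CD4+ replicate 1 (7.11% of genes), replicate 2 (7.12%) or both (7.84%). Between cell types in spleen, 4 of 6 were called in the spleen libraries alone (7.28% of genes), 3 with library weights (6.14%) and 3 without kidney CD4+ replicate 1 (3.28%), replicate 2 (3.09%) or both (3.55%). Between organs in CD4+ cells 3 of 6 (Gzma, Prf1 and Nkg7) were called without kidney CD4+ replicate 1, where 22.2% of genes were. Between cell types in kidney, 0 of 6 were called in the kidney libraries alone (0.0298% of genes), 4 without kidney CD4+ replicate 1 (11.3%) and 4 without replicate 2 (13.2%).

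The organ difference in CD8+ minus that in CD4+ cells was called for 0 of 6 genes and 0% of all genes by limma. At an unadjusted p below 0.05 it had 2 of 6 (Gzmb and Gzmk) against 3.34% of all genes, edgeR called 0 genes in all, and DESeq2 called 12 (0.111%), none of them among the 6. Without kidney CD4+ replicate 1 it was called for 2 of 6 and for 7.3% of all genes. These comparisons share libraries, since both organ comparisons and both cell type comparisons are made from the same 4 groups.

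**Figure D4:**
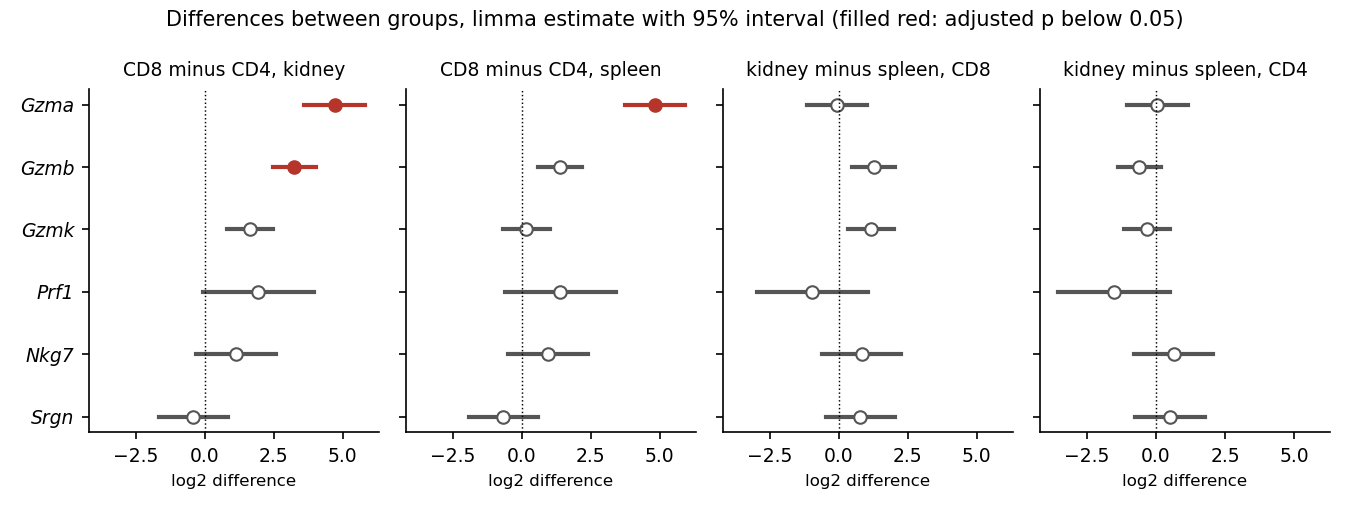
Log2 differences of the 6 granule genes with 95% intervals from the fit of all 8 libraries, for CD8+ minus CD4+ cells of each organ and for kidney minus spleen in CD8+ and in CD4+ cells; filled red points had an adjusted p below 0.05. The filled points are Gzma in both organs (4.71 and 4.83) and Gzmb in kidney (3.25), and the intervals of Prf1 are the widest.

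Of 7 other granzymes, 3 had a row in the table and 2 passed the filter on low levels. Gzmm was at 4365 and 3370 in spleen CD8+, 587 and 791 in kidney CD8+, 32.7 and 41.4 in spleen CD4+, and 0 and 51.0 in kidney CD4+. Both spleen CD8+ libraries were above both kidney CD8+ libraries, a ratio of 5.61 in the direction opposite to Gzmb and Gzmk. The log2 difference, kidney minus spleen, was −2.49 ± 1.44 (limma adjusted p = 0.613); in the CD8+ libraries alone its adjusted p was 0.00132, with library weights 0.0391, and without kidney CD4+ replicate 1, replicate 2 or both 0.000934, 0.00212 and 0.000756. In spleen, Gzmm of CD8+ minus CD4+ cells had a log2 value of 6.67 (adjusted p = 0.14), which passed in 7 of 21 alternatives: the spleen libraries alone (4.49e-10), library weights (8.46e-06), DESeq2 (0.0144), a pseudocount of 10 (0.00642) and the fits without kidney CD4+ replicate 1 (2.70e-06), replicate 2 (9.47e-06) or both (1.87e-06). In kidney it was 6.56 (0.173) and passed in 3 of 20: with a pseudocount of 10 (0.0307) and without kidney CD4+ replicate 1 (0.000171) or 2 (8.70e-06). Gzmc, the neighbour of Gzmb, was at 0 to 21.1 in every library and passed no test. Of the 2 genes limma called 0 in each comparison and edgeR 0, with 1 at an unadjusted p below 0.05 between cell types in each organ, and DESeq2 called 1 in spleen. For this list and those below, the shares of all genes at an unadjusted p below 0.05 were 9.11% and 10.6% between organs in CD4+ and CD8+ cells, and 8.51% and 6.43% for the cell types in kidney and spleen. In the same order limma called 0.959%, 1.55%, 0.203% and 0.36%, DESeq2 3.25%, 4.54%, 1.99% and 2.16%, and edgeR 0.609%, 0.913%, 0.221% and 0.415%.

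Granule proteases and contents were 10 genes, all tested, and 0 of 10 were called in any comparison. Ctsw, cathepsin W, a protease of cytotoxic lymphocytes, had a level of its own in each group. It was at 22841 and 26872 in kidney CD8+, 11577 and 11644 in spleen CD8+, 8213 and 10741 in kidney CD4+ and 2057 and 2813 in spleen CD4+, so that the 4 groups did not overlap. The ratio of kidney to spleen was 3.89 in CD4+ cells (adjusted p = 0.0583) and 2.14 in CD8+ cells (0.304), and that of CD8+ to CD4+ cells in spleen was 4.77 (0.0553). Ctsc, the cathepsin that cuts granzymes into their active form, was at 1131 and 1085 in kidney CD8+ and 790 and 912 in spleen CD8+ (adjusted p = 0.91). Cd63, a membrane protein of late endosomes and granules, was at 132 and 328 in kidney CD8+ and 9.43 and 30.6 in spleen CD8+ (0.107). Fasl, whose receptor the lpr allele disrupts, was at 5465 and 4512 in kidney CD8+ and 2651 and 2467 in spleen CD8+ (0.761), and its kidney CD4+ libraries were at 5328 and 638. The list's median log2 difference between organs in CD8+ cells was 0.68 and in CD4+ cells 0.36. At an unadjusted p below 0.05 there were 3 of 10 between organs in CD4+ and in CD8+ cells, and for the cell types 2 in kidney and 3 in spleen, against 9.11%, 10.6%, 8.51% and 6.43% of all genes. edgeR called 0 and DESeq2 2, 1, 1 and 2, against 3.25%, 4.54%, 1.99% and 2.16%.

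Granule transport, docking and release had 15 of 16 genes in the table, and 0 of 15 were called in any comparison. Sytl2, a synaptotagmin-like protein that links Rab27a on the granule to the plasma membrane, was at 133 and 114 in kidney CD8+ and 22.2 and 23.9 in spleen CD8+ (ratio 5.37, adjusted p = 0.112). Stx11, a syntaxin needed for granule fusion, was at 50.9 and 35.5 in kidney CD8+ and 13.5 and 5.73 in spleen CD8+ (0.298). Hps4 was at 41.6 and 31.6 against 9.43 and 13.4 in the same groups (0.481), and Hps1, its partner, was at 2.55 and 37.8 in kidney CD8+ against 221 and 46.8 in kidney CD4+ (0.527). The median log2 difference of the 15 genes was 0.22 between organs in CD8+ cells and 0.13 in CD4+ cells. At an unadjusted p below 0.05 there were 2 of 15 between organs in CD8+ cells, 0 in CD4+ cells and 1 between cell types in each organ; edgeR called 0, and DESeq2 1 between organs in CD8+ cells.

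Serpins of the B clade inhibit granule proteases in the cell that makes them, and 4 of 5 were tested with 0 called. Serpinb1a was at 239 and 205 in kidney CD8+, 63.3 and 34.4 in spleen CD8+, 184 and 184 in kidney CD4+ and 74.3 and 69.9 in spleen CD4+. The kidney libraries were above the spleen libraries in both cell types, and the ratio in CD8+ cells was 4.54 (adjusted p = 0.0629). Serpinb6a was at 1135 and 1341 in kidney CD8+ and 413 and 517 in spleen CD8+ (ratio 2.66, 0.139). Serpinb9, the inhibitor of granzyme B, was at 651 and 720 against 204 and 336 (ratio 2.54, 0.446). Serpinb6b was 2.46 times as high in kidney CD8+ as in kidney CD4+ cells (0.438). The median of the 4 was 1.40 between organs in CD8+ cells and 0.81 in CD4+ cells, and 3 and 2 of them had an unadjusted p below 0.05, as did 1 between cell types in kidney; those shares of all genes were 10.6%, 9.11% and 8.51%. edgeR called 0, and DESeq2 2 between organs in CD8+ cells, where it called 4.54% of all genes.

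Transcription factors of the cytotoxic programme had 15 of 16 genes tested and 1 call. Tcf7, the factor of memory and stem-like T cells, fell in kidney CD8+ cells: it was at 337 and 475 there and at 1764 and 2058 in spleen CD8+, where its mean was 4.71 times as high (log2 −2.25 ± 0.38, limma adjusted p = 0.0284). Its adjusted p was 0.259 without kidney CD8+ replicate 1, 0.0868 without replicate 2, 0.0952 without either spleen CD4+ library, 0.255 and 0.305 without spleen CD8+ replicate 1 and 2, 0.0829 without the intensity trend and 0.0586 with the replicate number as a block. Tbx21, which encodes T-bet, was at 166 and 161 in kidney CD8+, 92.3 and 62.1 in spleen CD8+, 92.3 and 212 in kidney CD4+ and 39.3 and 45.7 in spleen CD4+. Eomes was at 716 and 534, 807 and 636, 252 and 248, and 367 and 335 in the same order of groups, so that it separated CD8+ from CD4+ libraries but not the organs of CD8+ cells. Runx3 was at 1023 to 1387 in CD8+ and 689 to 1509 in CD4+ libraries, and Irf4 at 86.6 and 152 in kidney CD8+ against 33.0 and 37.2 in spleen CD8+ (adjusted p = 0.215). The median of the 15 genes was 0.16 between organs in CD8+ and in CD4+ cells, and for CD8+ minus CD4+ cells it was −0.35 in kidney and −0.02 in spleen. At an unadjusted p below 0.05 there were 3 of 15 between organs in CD8+ cells, where limma called 1.55% of all genes. There were 2 between organs in CD4+ cells and 2 between cell types in each organ. Between organs in CD8+ cells edgeR called 1 and DESeq2 2, and DESeq2 called 1 between cell types in kidney.

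Cytokines and chemokines that cytotoxic cells release were the list with the highest median between organs in CD8+ cells among the 7 lists, 1.90 for 7 genes. All 7 had positive log2 differences, 5 had an unadjusted p below 0.05, against 10.6% of all genes, and 1 was called by limma, 5 by DESeq2 and 0 by edgeR, against 1.55%, 4.54% and 0.913%. Between organs in CD4+ cells 6 of 7 were positive with a median of 0.87, and 2 had an unadjusted p below 0.05, against 9.11%. Between cell types the median was 1.48 in kidney and 0.24 in spleen. There 6 and 1 of 7 had an unadjusted p below 0.05, against 8.51% and 6.43%. Ccl3, a chemokine that draws monocytes and T cells, rose: it was at 19170.2 and 11627.1 in kidney CD8+ and 2951 and 2051 in spleen CD8+, a ratio of 6.16 (log2 2.60 ± 0.50, limma adjusted p = 0.0453). The adjusted p of Ccl3 was 0.00266 in the CD8+ libraries alone, 0.095 with edgeR, 0.0741 with median-of-ratios factors, 0.0672 with TMM factors and 0.276 to 0.444 without a spleen CD8+ library. It was 0.108 without the intensity trend, 0.0905 with the replicate number as a block, 0.052 with a pseudocount of 0.5 and 0.0541 without the filter. It was 0.355 and 0.11 without kidney CD8+ replicate 1 and 2, and 0.142 and 0.144 without spleen CD4+ replicate 1 and 2. Ifng was at 13296 and 9958 against 4023 and 3522 (ratio 3.08, 0.0752), and Tnf at 424 and 677 against 104 and 175 (ratio 3.95, 0.0805). Lta, lymphotoxin alpha, was lower in spleen CD8+ than in spleen CD4+ cells, at 99.7 and 97.4 against 573 and 607 (5.99 times lower, log2 −2.57 ± 0.36, adjusted p = 0.0301). That call was lost without any of the 4 spleen libraries (0.345 to 0.426), without kidney CD8+ replicate 1 (0.0846) or 2 (0.0837), without the intensity trend (0.0804) and with the replicate block (0.0756).

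The enzymes that build the chondroitin sulfate chains of serglycin had 9 of 11 genes tested and 0 called. Chsy1, which extends the chain, was at 788 and 504 in kidney CD8+, 695 and 771 in spleen CD8+, 130 and 162 in kidney CD4+ and 282 and 232 in spleen CD4+. It thus separated the cell types in both organs, by 4.42 times in kidney (adjusted p = 0.0994) and 2.85 times in spleen (0.226). Chst11 and Chst12, which sulfate it, were 3.51 and 3.74 times as high in kidney CD8+ as in kidney CD4+ cells (0.484 and 0.341), and Csgalnact2 4.56 times (0.567). The median over the 9 genes for CD8+ minus CD4+ cells was 1.14 in kidney and 0.58 in spleen, beside 0.03 and −0.05 over all genes. At an unadjusted p below 0.05 there were 4 of 9 in kidney and 1 in spleen, and 1 between organs in CD8+ cells; edgeR called 0 and DESeq2 2 in kidney and 1 in spleen.

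**Figure D5:**
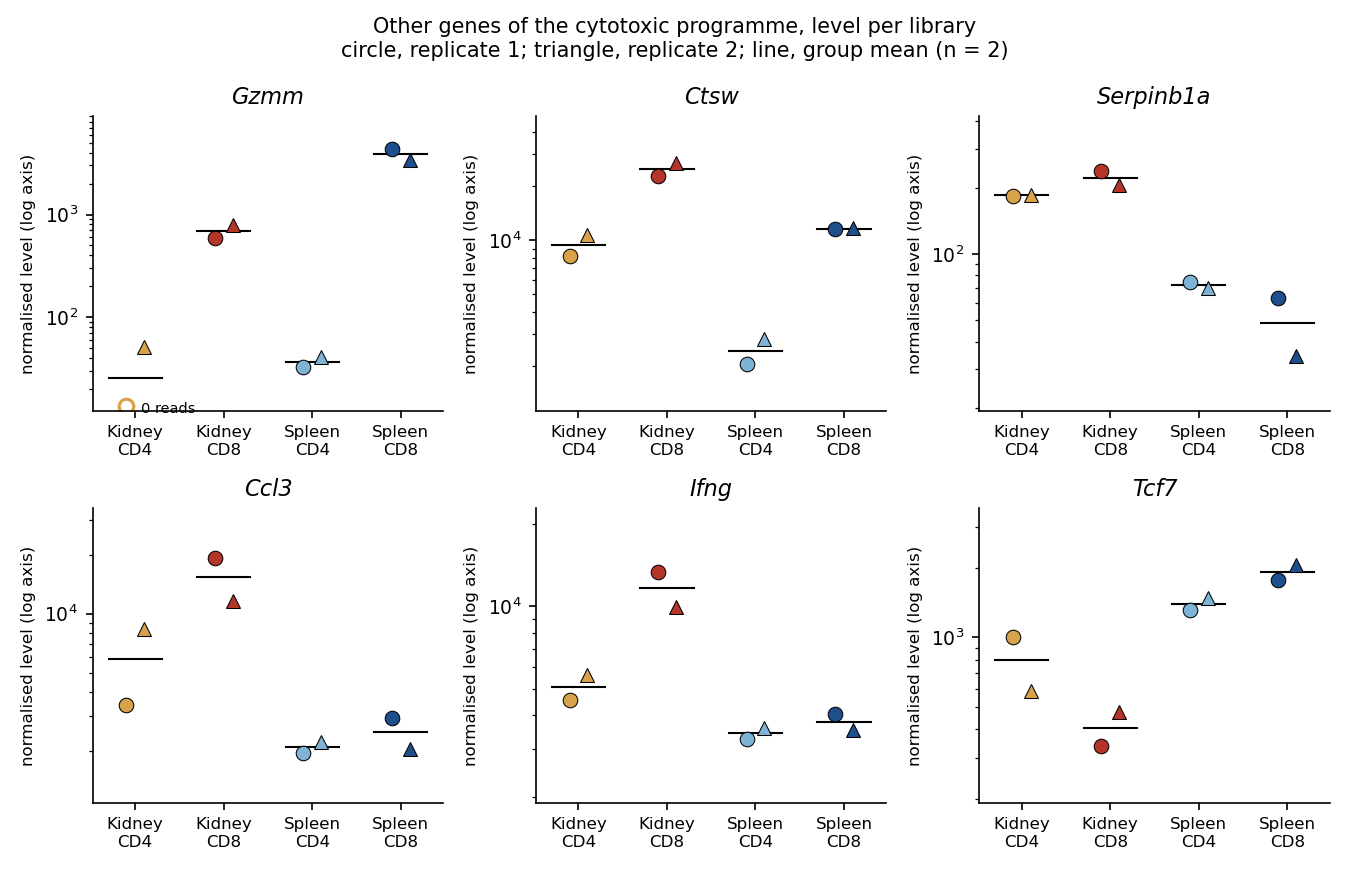
Level (deposited normalised signal, log axis, a separate scale for each gene) of 6 other genes of the cytotoxic programme in each library, with circles for replicate 1, triangles for replicate 2 and a line at the group mean; the open circle marks kidney CD4+ replicate 1 of Gzmm, which had 0 reads and is drawn at the foot of the axis. Gzmm and Tcf7 are highest in spleen CD8+ cells, Ctsw, Ccl3 and Ifng in kidney CD8+ cells, and Serpinb1a is higher in kidney than in spleen in both cell types.

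Among genes with a mean level of at least 100, the 3 whose log2 levels followed each granule gene most closely over the 8 libraries were found by Pearson's r over 4685 genes. For Gzma they were Ly6c2 (r = 0.986), Ier2 (0.984) and Wdr95 (0.982). Gzmb was followed by Ugcg (0.967), Ier3 (0.956) and Cd160 (0.956), and Gzmk by Qpct (0.959), Slamf7 (0.93) and 5430416N02Rik (0.924). Prf1 was followed by Rab8a (0.996), Armc7 (0.996) and Dhodh (0.989), Nkg7 by Hcst (0.984), Cuta (0.975) and Hopx (0.962), and Srgn by Nol7 (0.941), Spg21 (0.926) and Cyb5b (0.924). Among the granule genes, r was 0.91 between Gzma and Gzmb (Spearman's rho 0.81), 0.909 between Gzmb and Gzmk (0.905), 0.191 between Nkg7 and Srgn (0.238) and −0.85 between Prf1 and Srgn (−0.881). These values describe 8 libraries that share 4 groups and include the kidney CD4+ pair, and they carry no test.

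Other cells of kidney and spleen can hold granule genes too, so their markers were read in the same libraries. In bulk RNA, fewer cells of a kind and less RNA per cell cannot be told apart. The 10 T cell markers summed to 88771 to 128247 in all libraries. Within the kidney CD4+ pair, single markers differed by 1.34-fold to 8.74-fold between libraries. Cd3e was at 637 in 1 kidney CD4+ library and 5456 in the other, against 4225 to 6826 in the other groups. Of 11 markers of natural killer and innate lymphoid cells 8 had a row, and they summed to 1787 to 2748 in the kidney CD4+ libraries, 2048 to 3029 in the kidney CD8+ ones, 840 to 982 in spleen CD4+ and 1145 to 1263 in spleen CD8+. Ncr1, which defines natural killer cells among them, was at 0 in 5 of 8 libraries and at 113, 24.6 and 15.5 in replicate 1 of kidney CD4+, kidney CD8+ and spleen CD4+. Over the 8 markers the median log2 difference between organs was 1.55 in CD4+ and 1.47 in CD8+ cells. Between cell types it was −0.63 in kidney and −0.27 in spleen. There the markers went both ways, with 3 higher and 5 lower in CD8+ cells of kidney and 4 and 4 in spleen. Over these comparisons, organs first, 4, 4, 5 and 6 of 8 had an unadjusted p below 0.05, against 9.11%, 10.6%, 8.51% and 6.43% of all genes. DESeq2 called 2, 2, 4 and 3, against 3.25%, 4.54%, 1.99% and 2.16%. By edgeR 0, 1, 1 and 2 were called, against 0.609%, 0.913%, 0.221% and 0.415%. In that list, 2 genes that T cells or myeloid cells also express were called, Klre1 higher in spleen CD8+ than CD4+ cells (ratio 10.4, limma adjusted p = 0.0209) and Fcer1g higher in kidney than spleen CD8+ cells (ratio 12.3, 0.0199). The call of Klre1 was lost without any 1 of the spleen or kidney CD8+ libraries (0.0834 to 0.31) and with the replicate block (0.0547), and that of Fcer1g without kidney CD8+ replicate 1 (0.162) or any 1 of the 4 spleen libraries (0.0659 to 0.209). The 2 kidney CD4+ libraries had Cd8a at 103 and 5.20, against at least 12159 in the CD8+ libraries.

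Of 8 macrophage and monocyte markers tested between organs, 1 was called in CD4+ and 2 in CD8+ cells, all higher in kidney, and of 6 B and plasma cell markers 0 and 1, lower in kidney. Proximal tubule markers were called higher in kidney for 8 of 9 in each cell type, neutrophil markers lower for 6 and 7 of 8, and erythroid markers lower for 3 of 4 in each. Of all genes, limma called 0.959% in CD4+ and 1.55% in CD8+ cells. In the same order of lists, DESeq2 called 6 and 4, 1 and 3, 9 and 9, 8 and 8, and 3 and 3. Its shares of all genes were 3.25% and 4.54%. By edgeR the counts were 1 and 2, 0 and 0, 6 and 6, 6 and 7, and 1 and 2, against 0.609% and 0.913%. The 9 macrophage and monocyte markers of CD4+ libraries summed to 7074 to 7109 in kidney and 1689 to 2264 in spleen, and those of CD8+ libraries to 1879 to 2451 and 841 to 1458. Proximal tubule markers (9 of 9 in the table) summed to 5932 to 24004 in the kidney libraries and 0 to 4.99 in spleen, with 8 of 9 at 0 in every spleen library. Neutrophil markers (8 of 8) summed to 0 to 29.6 in kidney and 3655 to 9323 in spleen, and erythroid markers (5 of 5) to 9.87 to 170 and 7309 to 13190. B and plasma cell markers (7 of 9) summed to 585 to 1101 in kidney and 1813 to 2668 in spleen. Mast cell and basophil markers (5 of 8) summed to at most 86.4 and platelet markers (2 of 5) to at most 81.2 in any library. No marker of gamma delta T cells (0 of 4) had a row, so these cells were not analysed here. The part of such cells in the differences of the granule genes between organs was not tested.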

How the data were processed

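RNA-seq libraries of sorted T cells, 8 in 4 groups by their titles, were compared. The authors deposited 1 table of normalised signal, a read count divided by a size factor for each library: dividing each value by its library's level of 1 read gave whole reads for 100% of values (tolerance 1e-06). Reads were aligned to mm9, per the labels' protocols; STAR 2.5.3 and TopHat2 2.1.0 are named, per the submitters' processing notes. The sources used here do not give the counting tool, the annotation behind the table or any use of strand. All 8 columns were used, and 0 were unused.

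Levels were tested as log2(level + 1) with limma 3.58.1 (R 4.3.3; 4 group means in 1 fit, intensity trend, 2-sided). Of all genes, 10845 reached a level of 10 in 2 or more libraries and were tested, and p-values were adjusted by Benjamini-Hochberg over them in each of 5 comparisons; a call means an adjusted p below 0.05. There were 4 residual degrees of freedom, 8.48 with those borrowed over genes. Adjusted p-values are limma's unless edgeR (4.0.16, quasi-likelihood) or DESeq2 (1.42.0), both run on the recovered reads, is named. Fits without 1 library of a pair assume that the lone library varies like the others. Kidney CD4+ replicates had an SD of 1.56 on the log2 scale, against 0.435 to 0.650 in the other groups. A lone kidney CD4+ library does not meet that assumption, so adjusted p can be too small in comparisons that use it. Scripts were tested on simulated data.

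Named genes are the 6 members, up to 4 genes of each list with the smallest adjusted p plus any called, a fixed set (Cd4, Cd8a, Cd3e, Ncr1, Eomes, Tbx21, Runx3, Fasl, Ifng, Ctsc and Serpinb9), and the 3 genes most like each member. Klre1 and Fcer1g were named after their values were seen. Members and lists were chosen with earlier results of these data known. Positions and transcript lengths come from GENCODE on mm9, and promoters from RefSeq on GRCm38.p6.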

Additional observations from a re-analysis of the deposited data

Results flagged for a closer look

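The kidney and spleen libraries of Gzmb lay apart in opposite directions in the 2 cell types, though neither organ difference passed the test: both kidney CD8+ libraries (17598 and 16917) lay above both spleen CD8+ libraries (7274 and 7190), and both kidney CD4+ libraries (1705 and 1940) lay below both spleen CD4+ libraries (2356 and 3248). The log2 difference, kidney minus spleen, was 1.25 in CD8+ cells (95% interval 0.47 to 2.04, limma adjusted p = 0.162) and −0.60 in CD4+ cells (−1.39 to 0.18, 0.692). Libraries also did not overlap between organs for 51.1% of all genes in CD8+ and 31.9% in CD4+ cells. The organ effect in CD8+ minus that in CD4+ cells was 1.86 on the log2 scale. In limma's test of that difference the p was 0.00457 before adjustment and 0.999 after adjustment over all genes, so it did not pass.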

How the results depend on the processing

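Over 21 alternatives, 535 of 606 values of single granule genes stayed on their side of the threshold with their sign, 37 passed newly, 16 no longer passed and 18 turned sign. Counts of called genes among the 6 moved as follows. With the compared libraries alone, 3 were called between organs in CD8+ cells, while the cell type comparison had 0 in kidney and 4 in spleen. Library weights gave 2 between organs in CD8+ cells and 3 between cell types in spleen, and DESeq2 gave 1 and 2. Without both kidney CD4+ libraries the counts were 3 between organs in CD8+ cells and 3 between cell types in spleen. Leaving out single libraries gave 0 to 3 between organs in CD4+ cells and in CD8+ cells, 0 to 4 between cell types in kidney, 0 to 3 in spleen and 0 to 2 for the organ effect in CD8+ minus CD4+ cells. The values between organs of 3 came without kidney CD4+ replicate 1 (both cell types; 22.2% of all genes were then called in CD4+ and 7.11% in CD8+ cells) or replicate 2 (CD8+ cells; 7.12%).

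Values that turned sign were uncalled in the fit of all libraries and in the alternative. Leaving out single libraries, the log2 organ difference in CD4+ cells ran from −0.667 (without kidney CD4+ replicate 2) to 0.764 for Gzma, −3.1 to 0.0677 for Prf1 and −0.122 to 1.4 for Nkg7, turning without that library and, for Gzma, also without spleen CD4+ replicate 1 (−0.227). The difference of CD8+ minus CD4+ cells ran from −0.884 to 0.0551 for Srgn in kidney and from −0.0658 to 0.393 for Gzmk in spleen. The organ effect in CD8+ minus CD4+ cells ran from −0.833 to 0.598 for Gzma (0.158 without spleen CD4+ replicate 1), −1.03 to 2.14 for Prf1, −0.579 to 0.942 for Nkg7 and −0.372 to 0.9 for Srgn (−0.206 without kidney CD4+ replicate 1). By edgeR and DESeq2 it was −0.0729 and −0.0428 for Prf1, −0.0668 and −0.113 for Nkg7 and −0.0294 and −0.066 for Srgn. The cause was not tested.

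The replicate numbers were also used as a block. The replicate differences of compared groups correlated at 0.00784 to 0.0559. These values do not settle whether libraries of the same number share a mouse, which the labels do not say. With the replicate block the counts among the 6 genes were 0 between organs in CD4+ and in CD8+ cells, 2 between cell types in kidney, 1 in spleen and 0 for the difference of organ effects, as without it; over all genes 104 calls became 90, 168 became 137, 22 became 18 and 39 became 19. Changing from the deposited to the recomputed size factors moved the median log2 difference of all genes by under 0.1 in every comparison. No granule gene turned sign under either recomputed set. Prf1 had 67 and 901 reads in the kidney CD4+ libraries.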
